A study of Mus musculus with 6 samples.

Results

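The telomere-capping genes of the mouse were examined in testes at postnatal day 14. They are the 7 genes of shelterin, the protein complex that coats telomere repeats (Terf1, Terf2, Terf2ip, Tinf2, Pot1a, Pot1b and Acd), and the 3 genes of CST, a complex that binds single-stranded DNA (Ctc1, Stn1 and Ten1). Members are a list of gene symbols with no threshold on a measured value, and all 10 were found among the 50763 symbols of the table. The study compared 3 wild-type testis samples (WT) with 3 samples of the genotype called sKO, in which the series title describes a conditional knockout of Rif1 in germ cells before meiosis. The sources used here do not give the Cre driver, the deleted exons, the strain or any allele shared by both groups. Poly(A) RNA of testis was counted per gene, so each value covers germ cells and somatic cells together. Whether each sample was a separate animal is not stated, so the p-values rest on a spread between samples that may be technical.

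Shelterin hides chromosome ends from the DNA damage response. TRF1 and TRF2 bind the TTAGGG duplex, TIN2 and TPP1 (encoded by Acd) bridge them to POT1 proteins on the 3′ overhang, and CST brings DNA polymerase alpha-primase to fill in the C-rich strand. In budding yeast, Rif1 was found as a partner of the telomere protein Rap1. Mammalian RIF1 is not a shelterin subunit, but acts at DNA breaks and at unprotected telomeres with 53BP1, in a pathway that leads through shieldin to CST. In spermatocytes telomeres must also attach to the nuclear envelope, through TERB1, which binds TRF1, and its partners TERB2 and MAJIN.

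Mice carry a pair of POT1 genes, and the sequences below are shown because the balance between them is one of the results and depends on telling their reads apart. The coding sequences of Pot1a (chromosome 6) and Pot1b (chromosome 17) were 78.8% identical over 1917 aligned bases in GENCODE transcripts of GRCm38. Their longest identical run had 41 bases. It is printed in capitals with 30 bases on either side, coding bases 439 to 539 of each gene counted from the start codon, 5′ to 3′.
Pot1a: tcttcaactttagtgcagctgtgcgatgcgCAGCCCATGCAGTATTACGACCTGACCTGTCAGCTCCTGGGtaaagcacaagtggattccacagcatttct
Pot1b: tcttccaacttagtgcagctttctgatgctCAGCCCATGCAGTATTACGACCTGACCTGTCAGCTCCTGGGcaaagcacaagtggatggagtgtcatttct
The lower-case flanks hold 15 differing bases. Among all annotated transcripts, 0 of 3102 words of 50 bases from the Pot1a transcript and 72 of 3474 (2.07%) from the Pot1b transcript occurred in another gene. TRF1 and TRF2 are more distant, with coding sequences 64.5% identical over 1217 aligned bases and a longest identical run of 17.

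Total counts ranged from 15941672 to 18296594 per library, so 3 counts, the limit that a count of 0 allows, amount to 0.165 to 0.187 CPM (counts per 1000000, computed on TMM-scaled library sizes). Every member lay far above that, with 233 to 1743 counts per library, and 10 of 10 passed the filter on low counts. The targeted gene Rif1 gave 96.5, 83.7 and 129 CPM in the WT libraries and 42.0, 46.4 and 49.2 CPM in those of sKO, in the order of their numbers. The log2 fold change of -1.17 had an SE of 0.15 (adjusted p = 0.0145 by edgeR), though the call was lost without WT library 2, sKO library 1 or sKO library 2 (adjusted p = 0.137, 0.0618 and 0.120) and with limma-voom (adjusted p = 0.0522). Summed over 15 markers of pachytene spermatocytes, the libraries held 882 to 1780 CPM in WT and 382 to 626 CPM in sKO. Sums over 13 Sertoli cell markers were 5229 to 6265 and 6440 to 7868 CPM, and over 12 spermatogonia markers 1049 to 1172 and 1207 to 1240 CPM. Most of each Sertoli sum was 1 gene, Clu, with 2929 to 3614 CPM in WT and 3713 to 4615 CPM in sKO. Every sKO library was above every WT library for 5 of the 13 Sertoli and 2 of the 12 spermatogonia markers, where 9.58% of all tested genes did so. In sKO library 1 the 8 epididymis markers summed to 160 CPM, against 1.32 to 19.6 CPM in the other 5 libraries.

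No shelterin or CST gene passed the test between the genotypes. At an adjusted p under 0.05, edgeR called 0 members lower and 0 higher, against 240 of 18860 tested genes lower (1.27%) and 6 higher (0.0318%). DESeq2 also called 0 members, where it called 3.82% of all tested genes lower and 0.297% higher. limma-voom called 0 genes of all 18860 (0.0%), so its 0 members says nothing about them. At an unadjusted p under 0.05 there were likewise 0 members by edgeR, where 13.6% of all tested genes passed, 8.54% lower and 5.06% higher. In either direction 1.3% of all tested genes were called, and 0.965% of the 7049 genes within the members' range of mean level, so 0 of 10 is near the background and the intervals carry the description. The 10 log2 fold changes ranged from -0.14 (Terf1) to 0.18 (Terf2ip), with a median of -0.02 where all tested genes had a median of 0.03. All 10 of the 95% intervals lay within -0.5 and 0.5 on the log2 scale; the farthest bounds were -0.49 for Terf1 and 0.40 for Stn1. Of all tested genes 43.8% had intervals within that band, and 71.8% of those 7049 genes did. A change of 1 log2 unit in either direction was outside the interval of each member, here and in the 13 alternative fits.

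**Figure D1:**
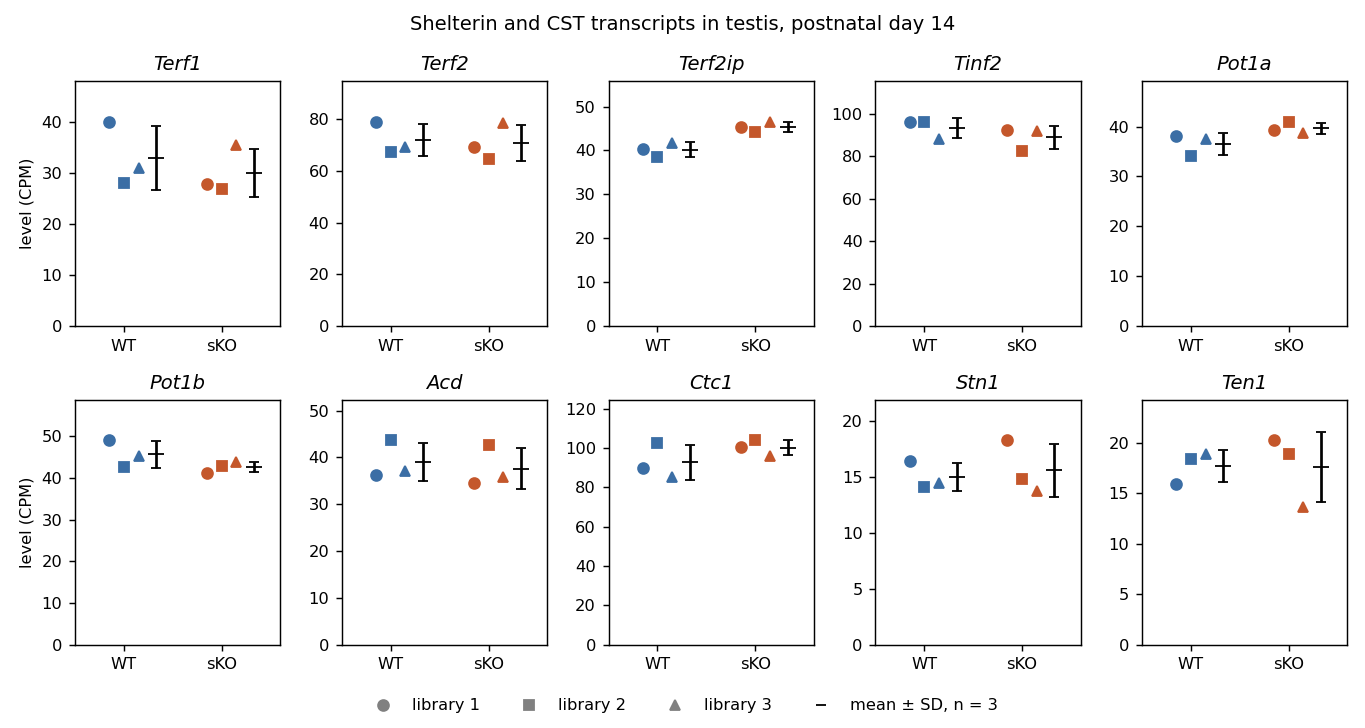
Level of each member in CPM in the 3 WT libraries (blue) and the 3 sKO libraries (orange), each axis starting at 0, with the mean ± SD (n = 3) beside the points. The groups overlap for 8 genes, and for Terf2ip and Pot1a every sKO library lies above every WT library.

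Terf1 and Terf2 encode the binders of the duplex repeat. Terf1, whose product TRF1 aids replication through telomeres, stood at 40.1, 28.1 and 31.0 CPM in WT, libraries in order, and at 27.8, 26.9 and 35.5 CPM in sKO. WT library 1 and sKO library 3 were the high ones, and the groups overlapped. Its log2 fold change was -0.14 (SE 0.16, 95% interval -0.49 to 0.21, edgeR adjusted p = 0.758). Terf2, whose product TRF2 folds the end into a loop and holds back the ATM kinase and end joining, stood at 78.9, 67.3 and 69.2 CPM in WT and at 69.4, 64.4 and 78.3 CPM in sKO. The same libraries, WT 1 and sKO 3, were highest. Its log2 fold change was -0.02 (SE 0.11, 95% interval -0.26 to 0.22, edgeR adjusted p = 0.951).

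In each group the library with most Terf1 was also the one with the highest level of early meiotic prophase markers. This was not particular to Terf1. WT library 1 and sKO library 3 were also the highest of their groups for Terf2 and Pot1b, though not for the remaining members. Across genes, the deviations of these libraries from their group means correlated at 0.448, the highest value between a WT and an sKO library. The share of all genes with this pattern was not counted. Relative to the WT mean, Terf1 stood at 0.30 (log2) in WT library 1 and 0.12 in sKO library 3, and the median of the 11 early prophase markers stood at 0.29 and -0.08 in those libraries, above the other libraries of their group in each case. Sycp3, a lateral element protein of the synaptonemal complex, is named outside the rule for named genes. It reached 467 CPM in WT library 1 and 335 CPM in sKO library 3 and 168 to 274 CPM in the other 4. Mei1, Rec8 and Prdm9 were not highest in WT library 1, where the rest of the early prophase markers were. Rec8 was the lowest of WT there, at 48.0 CPM against 62.6 and 56.8. All markers of that list were highest of sKO in library 3. In bulk tissue, fewer cells of a type and less RNA per cell cannot be told apart, and the part of cell composition in the Terf1 values was not tested. The Terf1 estimate changed sign to 0.03 without WT library 1 and was -0.31 without sKO library 3 (edgeR adjusted p = 0.971 and 0.367). The ratio between the pair overlapped between the groups. Terf2 had 1.97, 2.40 and 2.23 counts per count of Terf1 in WT and 2.49, 2.39 and 2.21 in sKO. The difference in the log2 ratio was 0.11 (SE 0.10, n = 3 each; exact two-sided permutation p = 0.5).

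**Figure D2:**
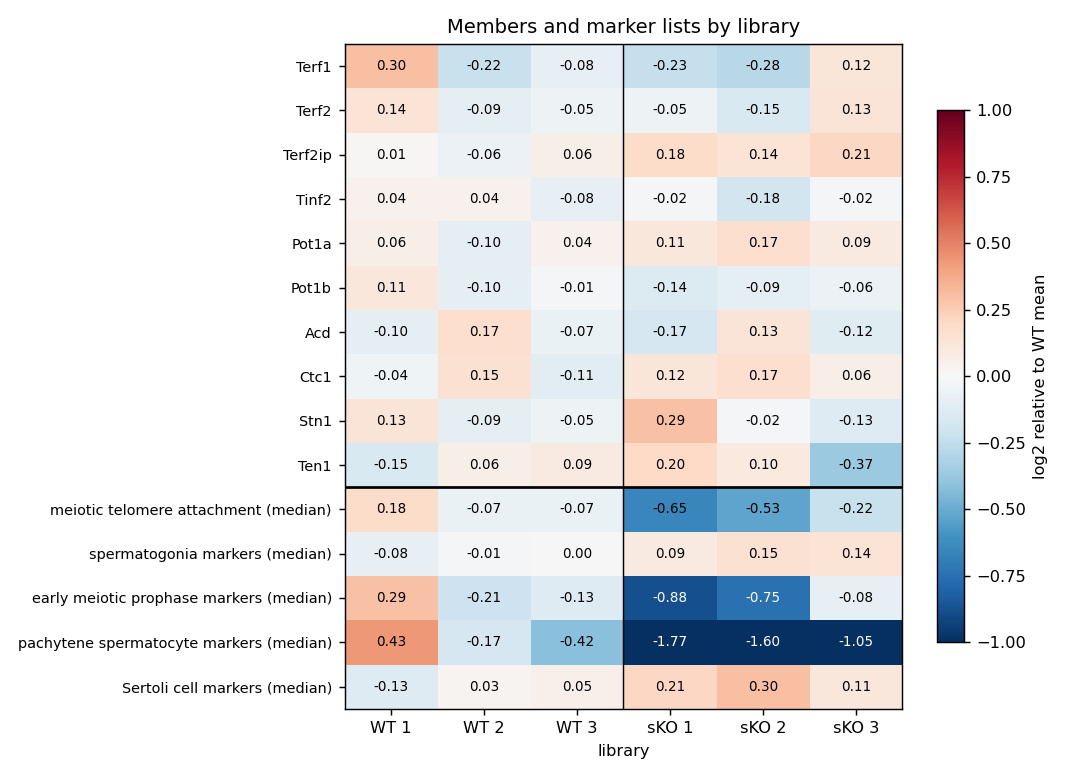
Log2 level in each library relative to the WT mean for the 10 members (above the line) and, for 5 gene lists, the median over the list (below); colours stop at 1 log2 unit. Members stay between -0.37 and 0.30, while the pachytene median is -1.77, -1.60 and -1.05 in sKO libraries 1 to 3.

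Terf2ip encodes mammalian RAP1, which TRF2 brings to telomeres and which restrains recombination there. It stood at 40.3, 38.4 and 41.7 CPM in WT and at 45.3, 44.1 and 46.5 CPM in sKO. Every sKO library was above every WT library, a separation that 9.58% of all tested genes showed in this direction, and 2 of the 10 members did (Terf2ip and Pot1a). Its log2 fold change was 0.18 (SE 0.10, 95% interval -0.04 to 0.39, edgeR adjusted p = 0.473), the smallest p among the members. The genes nearest to it in mean-centred log2 level over the 6 libraries, of 14563 compared, were Washc5, Psph, Ryk, Alg2 and Sgpl1. Their root mean square differences from Terf2ip were 0.0188 to 0.0261, where the median gene had 0.180, their log2 fold changes were 0.16 to 0.19, and their adjusted p by edgeR was 0.439 to 0.460. The genes were picked for likeness over the same libraries, so fold changes close to that of Terf2ip follow from the choice.

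The bridging subunits overlapped between the groups. Tinf2, whose product TIN2 joins TRF1 and TRF2 to TPP1, stood at 96.2, 96.0 and 88.1 CPM in WT and at 92.3, 82.5 and 92.0 CPM in sKO (log2 fold change -0.07 with SE 0.09; adjusted p = 0.784 by edgeR). The lowest library was sKO 2 and the 2 highest were WT 1 and 2. Acd, whose product TPP1 carries POT1 and recruits telomerase, stood at 36.2, 43.7 and 37.1 CPM in WT and at 34.5, 42.6 and 35.7 CPM in sKO (log2 fold change -0.05 with SE 0.12; adjusted p = 0.894 by edgeR). The second library of each group was the highest.

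Both bridging genes share exons with a neighbour on the opposite strand in GENCODE (GRCm38), and no source used here gives the strand setting of the counting, so reads of these stretches cannot be assigned with certainty. Tinf2 shares 1540 exon bases (31.2% of its exons) with Gmpr2, and Acd shares 1208 (33.3%) with Carmil2. The partners were named for their position. Gmpr2 ranged over the 6 libraries from 7.02 to 10.3 CPM and Carmil2 from 2.97 to 4.71 CPM, far below Tinf2 and Acd, and edgeR called neither (adjusted p = 0.858 and 0.948). Smaller overlaps were 124 bases between Stn1 and Gm19557 and 108 between Terf2ip and Gm6793.

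The POT1 pair gave the one separation between the groups that was tested as a value of its own. POT1a and POT1b both bind the single-stranded overhang; in mouse POT1a chiefly restrains the ATR kinase, and POT1b limits resection of the 5′ end and brings in CST. Pot1a stood at 38.1, 34.1 and 37.4 CPM in WT and at 39.3, 40.9 and 38.8 CPM in sKO, so every sKO library was higher (log2 fold change 0.12 with SE 0.10; adjusted p = 0.658 by edgeR). Pot1b stood at 49.0, 42.6 and 45.3 CPM in WT and at 41.3, 42.7 and 43.8 CPM in sKO, with overlap between the groups (log2 fold change -0.10 with SE 0.10; adjusted p = 0.719 by edgeR). Neither gene passed the test.

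Their ratio within a library does not depend on library scaling. Pot1b had 1.29, 1.25 and 1.21 counts per count of Pot1a in the WT libraries and 1.05, 1.04 and 1.13 in those of sKO. Every sKO ratio was below every WT ratio. The means were 1.25 ± 0.0381 in WT and 1.07 ± 0.0485 in sKO (SD, n = 3 each), a difference of -0.22 on the log2 scale (SE 0.04). The exact two-sided permutation test gave p = 0.1, the smallest that 3 against 3 libraries allow, and 0.2 after Benjamini-Hochberg adjustment over the 2 ratios tested, so the difference does not pass a threshold of 0.05. Counting error alone is not small beside it: the 95% Wilson interval of the ratio was 1.09 to 1.35 in WT library 3, the lowest of WT, and 1.02 to 1.25 in sKO library 3, the highest of sKO. Intervals of this kind cover counting error only, since no molecular identifiers mark which reads are separate molecules. Leaving out each library in turn kept the log2 difference between -0.25 and -0.20.

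**Figure D3:**
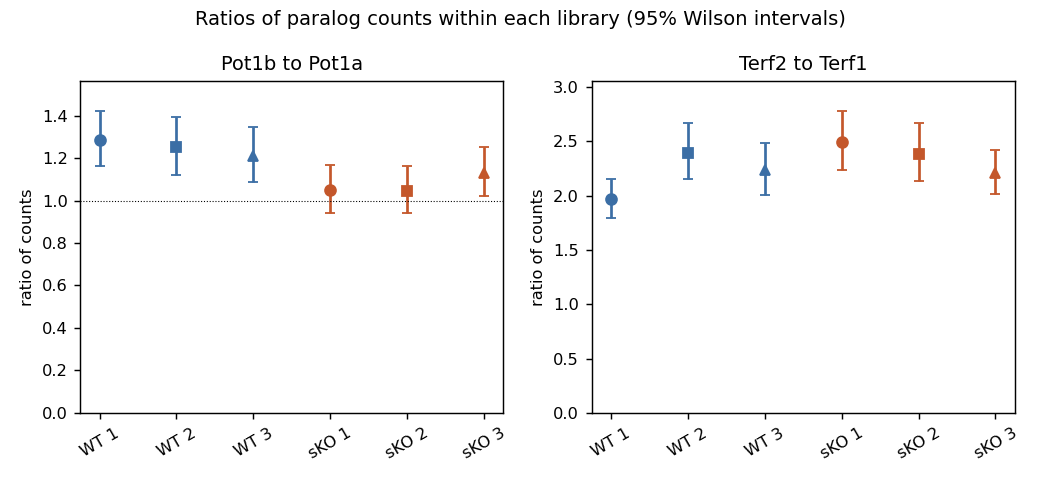
Ratio of raw counts within each library for Pot1b to Pot1a and for Terf2 to Terf1, with 95% Wilson intervals, WT in blue and sKO in orange; the dotted line marks equal counts of Pot1b and Pot1a. The Pot1 ratio is 1.21 to 1.29 in WT and 1.04 to 1.13 in sKO, and the Terf ratio overlaps between the groups.

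The CST subunits also overlapped between the groups. Ctc1, the large subunit, stood at 90.0, 103 and 85.4 CPM in WT and at 100.4, 104 and 96.2 CPM in sKO. WT libraries 1 and 3 were the low ones. Its log2 fold change was 0.11 (SE 0.10, 95% interval -0.10 to 0.33, edgeR adjusted p = 0.661). Stn1 and Ten1, the small subunits that resemble parts of the replication protein RPA, had the fewest counts and, with Terf1, the 3 widest intervals. Stn1 stood at 16.4, 14.1 and 14.5 CPM in WT and at 18.3, 14.8 and 13.7 CPM in sKO (log2 fold change 0.06 with SE 0.16; adjusted p = 0.912 by edgeR). Ten1 stood at 15.9, 18.4 and 18.8 CPM in WT and at 20.2, 18.9 and 13.6 CPM in sKO (log2 fold change -0.01 with SE 0.17; adjusted p = 0.987 by edgeR). For both genes sKO library 1 was the highest and sKO library 3 the lowest of all 6. Summed over the complex, CST held 125 ± 8.62 CPM in WT and 133 ± 8.53 CPM in sKO, and shelterin held 360 ± 16.7 and 355 ± 13.9 CPM (SD, n = 3 each), differences smaller than 1 SD.

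Between genes, levels were compared per kilobase of exon, with lengths from GENCODE on GRCm38, which is not the build of the counts. With exons of protein-coding transcripts, Tinf2 was highest in WT (24.4 ± 1.21 CPM per kilobase), followed by Ctc1 (22.2 ± 2.14), Ten1 (19.6 ± 1.74), Terf2 (18.7 ± 1.62), Terf1 (14.6 ± 2.76), Acd (12.4 ± 1.29), Pot1b (11.9 ± 0.839), Terf2ip (11.3 ± 0.467), Pot1a (8.53 ± 0.509) and Stn1 (5.02 ± 0.410; SD, n = 3 each). WT values of neighbours in this order overlapped from Tinf2 down to Terf2ip, so only Pot1a and then Stn1 stood apart from the gene above. With exons of all transcripts Ten1 moved from rank 3 to 8 and Terf1 from rank 5 to 7, while Tinf2 kept rank 1, Pot1a rank 9 and Stn1 rank 10, with overlapping values for the last pair. This second length was added after the data were seen. The within-group SD of log2 level had a median of 0.12 over the members (0.0495 to 0.24) and of 0.15 over the 7049 tested genes in the same range of mean level.

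**Figure D4:**
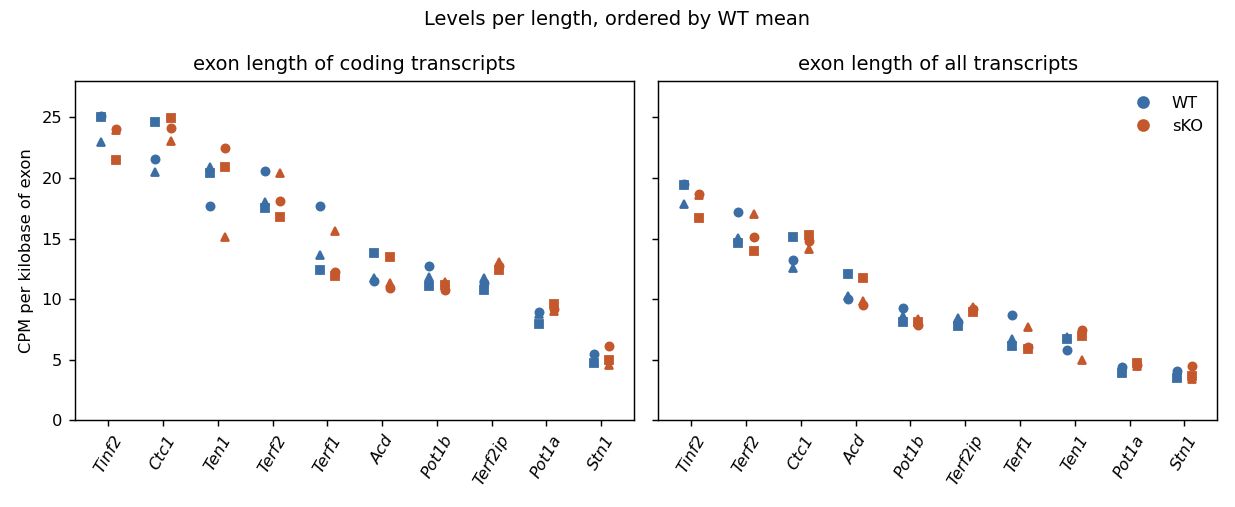
Level per kilobase of exon (CPM per kilobase) of each member in the 6 libraries, WT in blue and sKO in orange, ordered by the WT mean, with exon lengths of coding transcripts (left) or of all transcripts (right). Tinf2 is highest and Stn1 lowest with either length, while Ten1 and Terf1 stand lower in the order with all transcripts.

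Other telomere genes were read from lists chosen by function. Of 11 genes of telomerase and its assembly, edgeR called 0, and 1 was lower and 0 higher at an unadjusted p under 0.05, near the 8.54% of all tested genes that were lower, with a median log2 fold change of -0.01. That gene was Ruvbl2, an ATPase that helps to assemble telomerase and other complexes, and it had 69.9 ± 6.82 CPM in WT against 57.2 ± 2.43 in sKO (SD, n = 3 each), a log2 fold change of -0.29 with edgeR adjusted p = 0.228. Dkc1, the pseudouridine synthase dyskerin, and Parn, a nuclease that matures the telomerase RNA, had log2 fold changes of 0.20 and 0.15 (edgeR adjusted p = 0.491 and 0.516). Of 4 genes of DNA polymerase alpha-primase, which CST recruits, 0 were called and 0 had an unadjusted p under 0.05, with a median of 0.05. The 3 with the smallest p were Prim2, Pola2 and Pola1, with log2 fold changes of -0.16, 0.07 and 0.09 (edgeR adjusted p = 0.513, 0.832 and 0.867).

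Of 15 telomere accessory factors edgeR called 0, and 2 were lower and 0 higher at an unadjusted p under 0.05, with a median log2 fold change of -0.04. With 8.54% of all tested genes lower at that p, 2 of 15 is not a result about the list. The 2 were Tnks and Slx4. Tnks encodes tankyrase, which in human cells modifies TRF1 and releases it from telomeres. It stood at 58.0, 69.4 and 74.0 CPM in WT and at 61.0, 46.4 and 43.1 CPM in sKO. Only sKO library 1 lay within the WT range. Its log2 fold change was -0.42 (SE 0.14, edgeR adjusted p = 0.213). It passed the threshold without the filter on low counts (-0.43, edgeR adjusted p = 0.0134) and without both libraries numbered 1 (-0.69, edgeR adjusted p = 0.0224). In the other alternative fits it did not pass, with an adjusted p of 0.0956 by DESeq2. The fit without the filter called 992 of 35085 genes lower, against 240 of 18860 in the main fit. Slx4, a scaffold of nucleases that also trims telomeres, had 72.3 ± 8.95 CPM in WT against 58.6 ± 2.08 in sKO (SD, n = 3 each). The estimate was -0.30 on the log2 scale (edgeR adjusted p = 0.236), with no overlap between the groups, as in 10.7% of all tested genes in that direction. Pinx1, which binds TRF1 and telomerase, had a log2 fold change of 0.26 (edgeR adjusted p = 0.445).

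Genes that attach meiotic telomeres to the nuclear envelope were the telomere list with calls. Of 8 genes edgeR called 2 lower and 0 higher, and 6 were lower at an unadjusted p under 0.05, with a median of -0.49. Of all tested genes 1.27% were called lower and 8.54% were lower at an unadjusted p under 0.05. Kash5, the link to dynein, gave 90.6, 83.1 and 68.5 CPM in WT against 36.3, 34.3 and 47.5 in sKO, and Majin, the membrane anchor, gave 32.5, 26.5 and 27.1 CPM against 16.3, 15.3 and 20.6. For both, every sKO library was below every WT library, as in 10.7% of all tested genes. The log2 fold change of Kash5 was -1.04, SE 0.15 (adjusted p = 0.0178 by edgeR) and that of Majin -0.72, SE 0.15 (adjusted p = 0.0480 by edgeR). Both calls were lost without WT library 2, sKO library 1 or sKO library 2 (edgeR adjusted p = 0.0754 to 0.254), and that of Majin also without WT library 1 or 3 (0.118 and 0.0609) or without both libraries numbered 1 (0.192). With limma-voom neither passed (adjusted p = 0.0522 for Kash5 and 0.0604 for Majin). Terb1, the partner of TRF1, had a log2 fold change of -0.47 (SE 0.17, edgeR adjusted p = 0.242) and Sun1, which spans the inner nuclear membrane, one of -0.26 (SE 0.09, edgeR adjusted p = 0.205). The 95% interval of Kash5 (-1.36 to -0.71) lay wholly below the intervals of all 10 shelterin and CST genes, whose lowest bound was -0.49. The interval of Majin (-1.05 to -0.39) did not lie wholly below that of Terf1. Terb2 and Spdya had log2 fold changes of -0.51 and -0.80 (edgeR adjusted p = 0.301 and 0.212). Sun2 and Cdk2, named here after their values were seen, had log2 fold changes of 0.12 and 0.10 (edgeR adjusted p = 0.755 and 0.671). Over 14 tested pachytene markers the median log2 fold change was -1.56, and 4 were called lower. The part of spermatocyte number in the values of Kash5 and Majin was not tested.

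**Figure D5:**
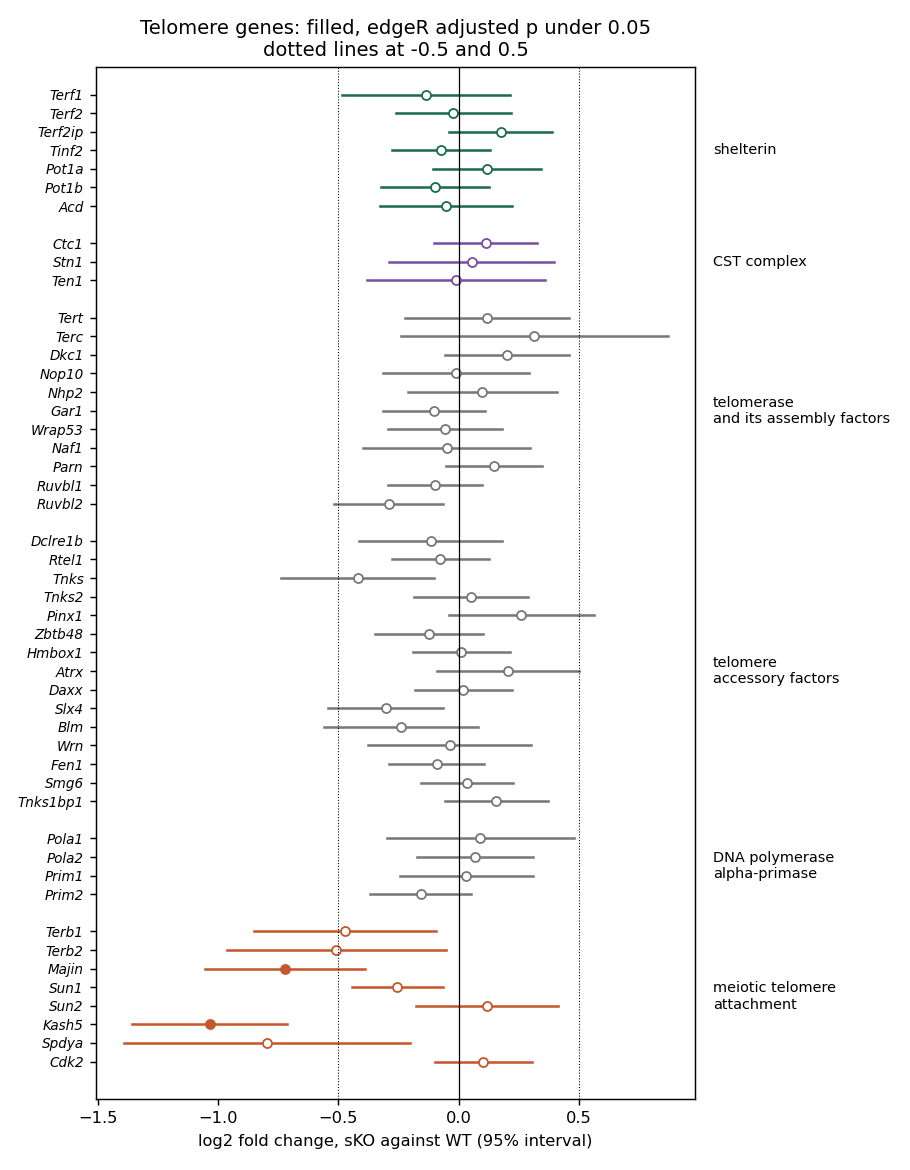
Log2 fold change of sKO against WT with its 95% interval for shelterin, CST and 4 further groups of telomere genes; filled points have an edgeR adjusted p under 0.05 and dotted lines mark -0.5 and 0.5. All 10 shelterin and CST intervals lie between the dotted lines, and the filled points are Majin and Kash5.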

How the data were processed

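Raw read counts per gene symbol were deposited in 1 table with a column for each of the 6 samples. Per the submitters' processing notes, the authors used Trim Galore, HISAT2 and featureCounts with build mm39; no source used here gives versions, annotation, strand setting or the handling of reads with several matches. Columns named con and scKO were read as WT and sKO from the group word and replicate number in the sample titles. All 50763 symbols entered the total counts given per library, and 15678 held 0 counts in every library. The library sizes behind TMM, CPM and the main test were totals over the 18860 genes that passed the filter on low counts. No pair of libraries within a group looked like a repeat deposit: chi-square over its degrees of freedom was 4.81 to 22.7.

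The counts were tested with edgeR 4.0.16 in R 4.3.3 (filterByExpr, TMM, robust quasi-likelihood F test, no covariates), with Benjamini-Hochberg adjustment over the 18860 tested genes and a threshold of 0.05. The SE of a log2 fold change came from its F statistic and the 95% interval from that SE and the t distribution. Alternatives were DESeq2 1.42.0, limma-voom (limma 3.58.1), DESeq2 size factors, no low-count filter, no robust option, a replicate block and left-out libraries. Ratios were tested by exact permutation over libraries.

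Although the rule for members uses no measured value, the members, gene lists, tests and alternatives were chosen with earlier results of these data known. By rule, named genes were all members, Rif1, the called genes and up to 3 of smallest p in each telomere list, and the 5 genes most like the member of smallest p. Terb1, Terb2, Spdya, Sun2, Cdk2, Sycp3, Mei1, Rec8, Prdm9, Clu and the genes that share exons with a member were named outside this rule. Exon lengths and shared words of 50 bases came from GENCODE release M21 (GRCm38). Fits were checked on simulated counts.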

Additional observations from a re-analysis of the deposited data

How the results depend on the processing

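The count of 0 called members, lower or higher, was the same in all 13 alternative fits, but this count carries little weight. With limma-voom, and with edgeR without WT library 2, sKO library 1 or sKO library 2, 0 of all tested genes were called. The 0 members of those fits therefore says nothing about them. The replicate block called 21 of 18860 genes. DESeq2 called 3.82% of all tested genes lower, so 0 of 10 is near the background there too. In each of the 13 fits the 95% intervals of all 10 members lay within -1 and 1 on the log2 scale. At least 8 of 10 lay within -0.5 and 0.5, the farthest bounds being -0.65 for Terf1 (without sKO library 3) and 0.52 for Stn1 (without sKO library 2). Signs of estimates near 0 were not stable. Without 1 library at a time, log2 fold changes ranged from -0.31 to 0.0276 for Terf1, -0.14 to 0.0517 for Terf2, -0.15 to 0.0373 for Acd, -0.0937 to 0.12 for Stn1, -0.15 to 0.11 for Ten1, -0.00267 to 0.12 for Pola2 and -0.0794 to 0.21 for Pola1. Without both libraries numbered 1 they were 0.0676 for Terf1, 0.0513 for Terf2, -0.0199 for Stn1 and -0.0613 for Pola2.

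Over all genes, the 240 called lower and 6 called higher became 992 and 154 without the low-count filter, 721 and 56 with DESeq2, 0 and 0 with limma-voom (1598 and 932 at an unadjusted p under 0.05), 21 and 0 with the replicate block (1324 and 605 at an unadjusted p under 0.05) and 155 and 5 without both libraries numbered 1. Leaving out 1 library gave 0 to 624 and 0 to 31, with 0 and 0 by edgeR without WT library 2, sKO library 1 or sKO library 2 (at an unadjusted p under 0.05, 1662, 1410 and 1221 lower and 1102, 431 and 503 higher). The cause was not tested. Deviations of same-numbered libraries from their group means correlated at -0.342, 0.12 and -0.276 across genes. Between differently numbered libraries the values ran from -0.26 to 0.448, the highest for WT library 1 with sKO library 3. The labels give no pairing. With 3 libraries per group, these values cannot settle whether same-numbered samples belong together. The calls of Kash5 and Majin were lost with the replicate block (adjusted p = 0.0777 and 0.144). Stn1 and Ten1 had the fewest counts, 233 to 337 per library; counting error and spread between libraries were not separated in their intervals.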
